A study of Mus musculus with 9 samples.

Results

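The EGF family ligands and receptors form a set of 9 genes out of 54532 genes in the expression table of b.end3 cells. They were chosen by name: the ligand genes Areg, Ereg, Hbegf, Tgfa, Btc, and Epgn and the receptor genes Egfr, Erbb2, and Erbb3, that is 6 ligands and 3 receptors. All 9 names were found in the table, each on 1 row. The b.end3 line (B.END3) was derived from mouse brain endothelium, and the labels give it as C57BL/6 cells of mouse brain microvessels, although the growth text calls the cells rat. The question of the study was how photodynamic treatment (PDT), a photosensitizer followed by light, changes gene expression in these cells at increasing light doses. RNA sequencing covered 9 libraries: 3 of untreated cells (Ctrl), 3 of cells after PDT with 10 J/cm2 (Ep1), and 3 of cells after PDT with 20 J/cm2 (Ep2). For PDT, a confluent monolayer was kept with porfimer sodium at 300 µg/mL for 90 min and then exposed to a 635 nm laser at 100 mW/cm2. No library with the photosensitizer alone or the light alone was analysed here, so the effects of the drug, of the light, and of both together cannot be told apart. All groups are 1 cell line, and nothing in the labels says that the libraries came from separate cultures, so a p-value measures only the spread between these libraries.

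The ligands of this family are made as precursors that span the plasma membrane, and metalloproteinases of the ADAM family cut them so that the EGF-like part can reach a receptor on the same or a neighbouring cell. Areg (amphiregulin), Tgfa (transforming growth factor alpha), and Epgn (epigen) bind the EGF receptor, while Ereg (epiregulin), Hbegf (heparin-binding EGF-like growth factor), and Btc (betacellulin) bind both the EGF receptor and ErbB4. Erbb2 has no known ligand and acts as the preferred partner in receptor pairs, and Erbb3 binds neuregulins but has little kinase activity of its own. Active receptors signal through RAS and ERK and through PI3K and AKT, and the family is best known for driving growth and repair of epithelia.

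Areg was the most abundant member and, among the 7 tested members, the one with the largest log2 fold change against Ctrl, and its promoter carries a cyclic AMP response element (CRE). The RefSeq promoters (GRCm38.p6, 250 bases before to 50 bases after the start site, 300 bases in all, written 5′ to 3′ on the strand of the gene) are printed here for the members that passed the test at the higher dose and that the table covers. It covers 6 of the 9 members and holds no entry for Ereg, Hbegf, or Erbb3, so the promoters of Areg and Ereg could not be compared. Capitals mark matches on either strand to the CRE (TGACGTCA), its core alone (TGACG), the AP-1 site (TGANTCA), and the C/EBP-ATF site (TGATGNAA). The positions are chr5:91139349-91139648 on the plus strand for Areg, chr6:86194972-86195271 on the plus strand for Tgfa, chr5:91402945-91403244 on the minus strand for Btc, and chr11:16751953-16752252 on the plus strand for Egfr.
Areg: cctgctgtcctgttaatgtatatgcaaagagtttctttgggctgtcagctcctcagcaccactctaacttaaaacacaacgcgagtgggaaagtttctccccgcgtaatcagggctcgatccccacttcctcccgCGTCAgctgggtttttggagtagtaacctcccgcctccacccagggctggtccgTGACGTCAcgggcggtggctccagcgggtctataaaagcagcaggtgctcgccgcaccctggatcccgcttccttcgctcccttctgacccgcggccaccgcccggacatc
Tgfa: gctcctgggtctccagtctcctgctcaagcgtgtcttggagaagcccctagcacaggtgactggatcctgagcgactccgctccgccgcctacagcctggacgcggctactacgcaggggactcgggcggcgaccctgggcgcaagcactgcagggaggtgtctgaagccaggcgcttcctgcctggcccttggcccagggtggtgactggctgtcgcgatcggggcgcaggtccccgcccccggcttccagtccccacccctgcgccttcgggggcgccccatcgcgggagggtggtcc
Btc: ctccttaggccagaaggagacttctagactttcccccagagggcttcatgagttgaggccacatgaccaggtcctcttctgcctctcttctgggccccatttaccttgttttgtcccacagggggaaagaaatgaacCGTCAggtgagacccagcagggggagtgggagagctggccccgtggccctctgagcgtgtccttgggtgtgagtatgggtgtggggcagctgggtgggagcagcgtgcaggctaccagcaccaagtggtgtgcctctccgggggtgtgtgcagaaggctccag
Egfr: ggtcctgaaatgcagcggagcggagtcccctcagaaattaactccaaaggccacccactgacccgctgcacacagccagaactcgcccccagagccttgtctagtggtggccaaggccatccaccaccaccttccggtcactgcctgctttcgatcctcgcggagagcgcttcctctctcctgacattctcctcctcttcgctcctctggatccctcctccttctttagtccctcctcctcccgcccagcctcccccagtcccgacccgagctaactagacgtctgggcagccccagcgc

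Counted from the start site, the full CRE of the Areg promoter begins at position -61, and a separate core on the reverse strand begins at position -115. The core TGACG is part of the full CRE, so every CRE also counts as a core. Of 32851 RefSeq promoters of the same length, 1.79% hold the full CRE and 20.8% a core. Among the 6 members covered, Areg was the only one with a full CRE, while Btc, Epgn, and Erbb2 each held a core alone. No match to the AP-1 letters (in 7.81% of promoters), to the C/EBP-ATF letters (3.97%), to the E-box CACGTG (7.15%), or to the NF-kB motif (0.411%) was found in these 6 windows. The SP1 motif GGGCGG, present in 35.7% of promoters, was found in Areg, Tgfa, and Egfr. These matches describe letters in a window and say nothing of binding.

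Expression is given in FPKM, fragments normalized to gene length and library size, which the authors deposited for each library. FPKM times gene length was divided by a step estimated for each library and taken as 1 fragment, and the result was rounded. The totals were between 16240688 and 19509225 fragments per library. A gene at 0 may have up to 3 fragments within counting error alone. Differences were tested with limma on log2(FPKM + 1) for the 11727 genes that reached 1 FPKM in 3 or more libraries, and a gene passed the test at an adjusted p below 0.05 after Benjamini-Hochberg adjustment over all of them. Fold changes on this scale understate the change of genes with low FPKM. The labelled cell type was checked against 16 endothelial markers. Only Flt1, Egfl7, Eng, and Mfsd2a reached 1 FPKM in 3 libraries, and Kdr, Emcn, Cldn5, Erg, Sox17, and Sox18 stayed under 0.1 FPKM in every library. Pecam1 and Cdh5 had means of 0.143 and 0.857 FPKM in Ctrl. The sum of these markers was 18.3 to 19.2 FPKM in the Ctrl libraries, 18.5 to 20.8 in Ep1, and 19.1 to 20.5 in Ep2. Within this sum, Flt1 rose from 6.90 to 10.9 FPKM in Ep2 (adjusted p = 9.67e-05, limma) and Mfsd2a fell from 7.16 to 4.54 FPKM (adjusted p = 0.000709, limma). Of 12 epithelial markers, 5 reached 1 FPKM in 3 libraries (Krt8, Krt18, Krt19, Epcam, and Grhl2), whereas Krt5, Krt14, Krt7, Trp63, Ovol1, and Esrp1 stayed under 0.1 FPKM. The summed epithelial level was 1030 to 1082 FPKM in the Ctrl libraries, 938.3 to 1043 in Ep1, and 1157 to 1374 in Ep2. Most of it came from Krt8, Krt18, and Krt19, with means of 640.2, 236.9, and 173.5 FPKM in Ctrl and 660.9, 307.5, and 283.0 in Ep2. Against Ctrl, Krt18 and Krt19 passed as higher in Ep2 (adjusted p = 0.000887 and 0.00127, limma), and Krt8 did not pass (adjusted p = 0.530, limma). Cdh1 had means of 0.0338 FPKM in Ctrl and 0.0763 in Ep2. The summed epithelial level was thus higher in Ep2 together with the ligands described next, and its part in their change was not tested. In bulk RNA, fewer cells of one type and less RNA per cell cannot be told apart.

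Transcripts of 3 ligands, Areg, Ereg, and Tgfa, rose at both light doses, and those of Btc and of the receptor Egfr rose at the higher dose. Hbegf and Erbb2 did not pass the test at either dose, and Epgn and Erbb3 were too low to be tested. Against Ctrl, 3 of the 7 tested members passed in Ep1, all of them higher, where 11.3% of all tested genes passed and 6.32% passed as higher. In Ep2, 5 of 7 passed, again all higher, against 53.2% of all tested genes and 23.9% as higher. Between the doses, 4 of 7 were higher in Ep2 than in Ep1, against 44.0% of all tested genes and 18.8% as higher. Among all genes that passed between the doses, 42.8% were higher in Ep2, and 55.5% after median centring. The study counts a gene as changed when its absolute log2 fold change also exceeds 0.6. By this rule 1 member changed in Ep1 (Areg, background 0.793%), 3 in Ep2 (Areg, Ereg, and Tgfa, background 9.17%), and 0 between the doses (background 5.9%), as under every alternative. The median log2 fold change over the 7 tested members was 0.14 in Ep1 and 0.37 in Ep2 against Ctrl and 0.23 between the doses, beside medians of -0.009, -0.029, and -0.015 over all tested genes. The comparisons with Ctrl share the 3 Ctrl libraries, so their values are set side by side and are not independent.

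**Figure D1:**
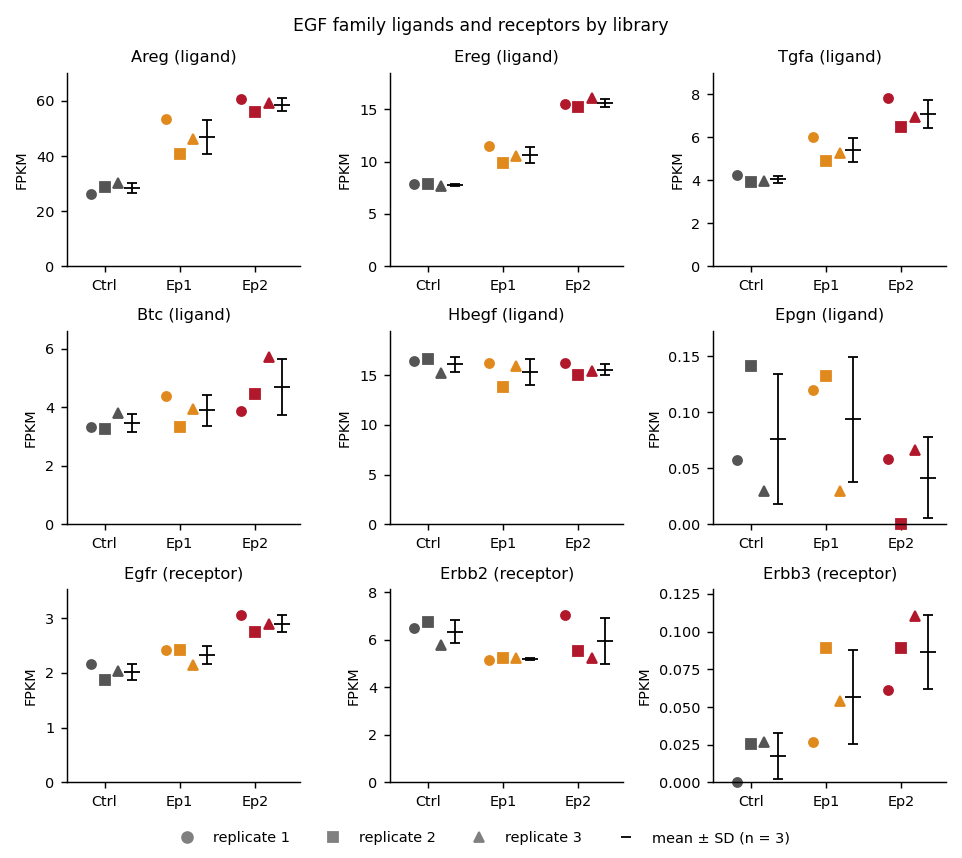
FPKM of the 9 members (y axis, from 0, with its own scale in each panel) in the 9 libraries, where symbols are replicates, and the black bar with whiskers is the mean ± SD of 3 libraries. Areg, Ereg, and Tgfa form 3 steps that do not overlap, Hbegf stays between 13.8 and 16.7 FPKM, and Epgn and Erbb3 stay near 0.

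Areg, whose product is a ligand with low affinity for the EGF receptor that is known for roles in repair and inflammation, was at 26.4, 28.7, and 30.1 FPKM in the 3 Ctrl libraries. It was at 53.5, 40.9, and 46.4 FPKM in Ep1 and at 60.6, 56.0, and 59.1 FPKM in Ep2. Every Ep1 library lay above every Ctrl library and every Ep2 library above every Ep1 library. The group means were 28.4 ± 1.86, 46.9 ± 6.32, and 58.6 ± 2.35 FPKM (SD, n = 3 each), so that Ep1 held 1.65 times and Ep2 2.06 times the Ctrl level. Relative to Ctrl, Areg rose by 0.70 on the log2 scale in Ep1 (SE 0.0886, limma adjusted p = 0.00551) and by 1.02 in Ep2 (adjusted p = 2.13e-05). The step from Ep1 to Ep2 was 0.32 (adjusted p = 0.0156). The change of Areg in Ep2 exceeded that of 99.5% of the tested genes. Areg is among the genes that the study itself singled out from these libraries, so its direction here is not independent evidence. The paper also measured Areg by quantitative PCR of reverse-transcribed RNA at the light dose of Ep2 and reports it as up-regulated. It does not say whether that RNA came from separate cultures. The FPKM values of Areg rest on 618 to 1404 fragments per library.

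Ereg, a ligand that is also made by cells at sites of tissue injury, was at 7.88, 7.85, and 7.68 FPKM in Ctrl. In Ep1 it was at 11.5, 9.89, and 10.5 FPKM, and in Ep2 at 15.5, 15.3, and 16.1 FPKM. The groups did not overlap, and the spread within Ctrl was small. The means were 7.80 ± 0.105, 10.6 ± 0.804, and 15.6 ± 0.411 FPKM (SD, n = 3 each). Relative to Ctrl, Ereg rose by 0.40 on the log2 scale in Ep1 (adjusted p = 0.00683, limma) and by 0.92 in Ep2 (adjusted p = 4.03e-06, limma). The step from Ep1 to Ep2 was 0.51 (adjusted p = 9.86e-05, limma), the largest step between the doses among the members.

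Tgfa, a ligand that many epithelial cells use on themselves, was at 4.24, 3.95, and 3.97 FPKM in the Ctrl libraries, at 6.01, 4.92, and 5.29 FPKM in Ep1, and at 7.82, 6.49, and 6.97 FPKM in Ep2. It also rose without overlap between the groups, and its lowest Ep2 library lay just above its highest Ep1 library. The level in Ep2 was 1.75 times that in Ctrl (7.09 ± 0.672 and 4.05 ± 0.161 FPKM, SD, n = 3 each), with a log2 fold change of 0.68 (adjusted p = 0.000102, limma). In Ep1 the mean was 5.41 ± 0.552 FPKM (SD, n = 3) and the log2 fold change 0.34 (adjusted p = 0.0286, limma). This Ep1 call was lost when single libraries were left out: the adjusted p was 0.0669, 0.107, and 0.0632 without Ctrl replicates 1, 2, and 3, and 0.09025 and 0.0834 without Ep1 replicates 1 and 3. It was also lost with no filter on low values (adjusted p = 0.0858). The step from Ep1 to Ep2 was 0.34 (adjusted p = 0.00707, limma).

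**Figure D2:**
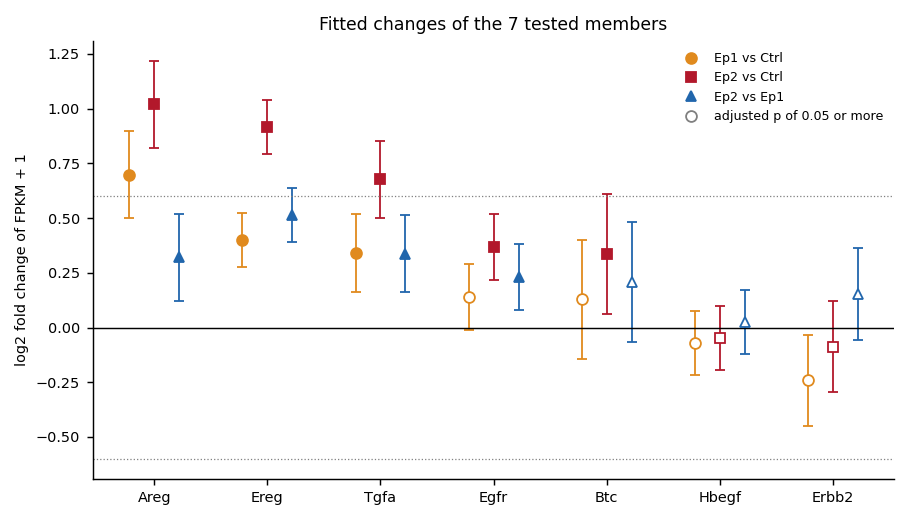
Log2 fold change of FPKM + 1 (y axis) of the 7 tested members in 3 comparisons, with 95% confidence intervals from limma. Filled symbols have an adjusted p below 0.05, open symbols do not, and dotted lines mark 0.6 and -0.6. Areg, Ereg, and Tgfa are filled in all 3 comparisons, and Hbegf and Erbb2 in none.

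Btc, a ligand first found in pancreatic beta cell tumours, was at 3.34, 3.25, and 3.80 FPKM in Ctrl, at 4.39, 3.34, and 3.94 FPKM in Ep1, and at 3.87, 4.43, and 5.73 FPKM in Ep2. Ep1 overlapped both other groups, and Ep2 lay above Ctrl by a narrow margin with 1 library, replicate 3, standing higher. The log2 fold change in Ep2 was 0.34 (adjusted p = 0.0415, limma). The call was lost without Ctrl replicate 1 (adjusted p = 0.105), Ctrl replicate 2 (0.117), Ep1 replicate 3 (0.0581), Ep2 replicate 2 (0.0678), or Ep2 replicate 3 (0.127). It was also lost with no filter (0.109) or in a fit of Ctrl and Ep2 alone (0.0512). The value in Ep1 was 0.13 (adjusted p = 0.519), with an interval from -0.15 to 0.40.

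Hbegf was the second most abundant member in Ctrl, at 16.4, 16.7, and 15.3 FPKM. It was at 16.2, 13.8, and 15.9 FPKM in Ep1 and at 16.2, 15.0, and 15.4 FPKM in Ep2, and all groups overlapped. Against Ctrl, Hbegf differed by -0.07 on the log2 scale in Ep1 (adjusted p = 0.495, limma) and -0.05 in Ep2 (adjusted p = 0.562, limma). The 95% intervals ran from -0.22 to 0.07 and from -0.19 to 0.10, so rises of the size seen for Tgfa in either group lay outside them. Epgn was represented by 2, 5, and 1 fragments in Ctrl, by 4, 4, and 1 in Ep1, and by 2, 0, and 2 in Ep2. A difference between the groups was not detectable at this depth.

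Within Ep1, replicate 1 gave the highest and replicate 2 the lowest value for each of the 5 tested ligands, and replicate 2 was also the shallowest Ep1 library, with 16797492 fragments. The receptors did not share this order. Whether depth had a part in it was not tested. Over the 9 libraries, with 3 groups at different levels, Pearson's r of log2(FPKM + 1) was 0.95 between Areg and Ereg, 0.96 between Areg and Tgfa, and 0.97 between Ereg and Tgfa. With the group means removed, the same pairs gave 0.79, 0.66, and 0.71. These correlations are descriptions over libraries that share their treatment.

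Egfr, the receptor that binds all of the tested ligands, was at 2.16, 1.87, and 2.04 FPKM in Ctrl. It was at 2.41, 2.42, and 2.14 FPKM in Ep1, which overlapped Ctrl, and at 3.07, 2.75, and 2.89 FPKM in Ep2, above all other libraries. The means were 2.02 ± 0.142, 2.33 ± 0.161, and 2.90 ± 0.158 FPKM (SD, n = 3 each). The log2 fold change in Ep2 was 0.37 against Ctrl (adjusted p = 0.00137, limma) and 0.23 against Ep1 (adjusted p = 0.0198, limma). The call between the doses was lost without Ep1 replicate 3 (adjusted p = 0.0776) or Ep2 replicate 1 (0.0505). In Ep1 the value was 0.14 (adjusted p = 0.204, limma), with an interval from -0.01 to 0.29.

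Erbb2, the partner receptor without a ligand of its own, was the most abundant receptor. It was at 6.49, 6.75, and 5.80 FPKM in Ctrl, at 5.16, 5.23, and 5.23 FPKM in Ep1, and at 7.06, 5.54, and 5.24 FPKM in Ep2. All Ep1 libraries lay below all Ctrl libraries, while Ep2 overlapped Ctrl because replicate 1 was the highest of the 9 libraries. Relative to Ctrl, Erbb2 differed by -0.24 on the log2 scale in Ep1 (adjusted p = 0.1199, limma) and -0.09 in Ep2 (adjusted p = 0.450, limma). Without Ep2 replicate 1, both passed as lower, with adjusted p = 0.0229 in Ep1 and 0.0255 in Ep2. The Ep1 value also passed in a fit of Ctrl and Ep1 alone (0.029) and with voom on fragments (0.0453). Erbb3 was at 0, 3, and 3 fragments in Ctrl, at 3, 9, and 6 in Ep1, and at 7, 10, and 11 in Ep2. Every Ep2 library was above every Ctrl library, but all values were at or below 0.110 FPKM. In a fit with no filter its adjusted p was 0.0544 in Ep2 (limma).

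The order of the levels in Ctrl, per gene length, was Areg, Hbegf, Ereg, Erbb2, Tgfa, Btc, Egfr, Epgn, and Erbb3, and the ranges of neighbours did not overlap, those of Epgn and Erbb3 being at 5 fragments or fewer. In Ep1 the ranges of Tgfa and Erbb2 overlapped. In Ep2 those of Ereg and Hbegf overlapped, as did those of Tgfa with Erbb2 and of Erbb2 with Btc. In both treated groups Epgn and Erbb3 overlapped as well. The summed ligand level was 59.9 ± 1.37, 82.3 ± 9.36, and 101.5 ± 3.76 FPKM in the groups in order of dose (SD, n = 3 each). Areg made up 47.4% ± 2.11, 57.0% ± 1.23, and 57.7% ± 0.528 of it (SD, n = 3 each). The share of Hbegf was 26.9% ± 1.62 in Ctrl, 18.7% ± 0.905 in Ep1, and 15.3% ± 0.356 in Ep2 (n = 3 each, SD), while its own level stayed between 13.8 and 16.7 FPKM. The share of Ereg was 13.0% in both Ctrl and Ep1 and 15.4% in Ep2. The summed receptor level was 8.39 ± 0.455, 7.59 ± 0.158, and 8.94 ± 1.09 FPKM (SD, n = 3 each), of which Egfr held 24.2%, 30.6%, and 32.7%. These shares are descriptions and were not tested.

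**Figure D3:**
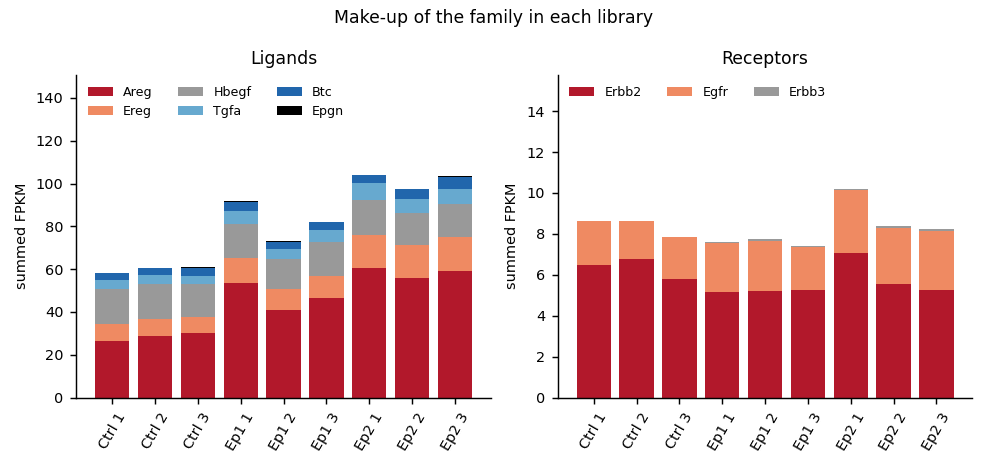
Summed FPKM (y axis, from 0) of the 6 ligands and of the 3 receptors in each of the 9 libraries, stacked by gene. The ligand bars average 59.9 FPKM in Ctrl and 101.5 FPKM in Ep2, and the Areg segment differs most between them.

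The ligand genes Epgn, Ereg, Areg, and Btc lie next to each other on mouse chromosome 5 (GRCm38), within 375.5 kb. Epgn is at chr5:91027464-91035215, Ereg at chr5:91074622-91093646, and Areg at chr5:91139599-91148432, all on the plus strand, and Btc is at chr5:91357261-91402994 on the minus strand. Tgfa is on chromosome 6, Egfr and Erbb2 are on chromosome 11, and Erbb3 is on chromosome 10. The gap from Ereg to Areg is 46.0 kb and that from Areg to Btc 208.8 kb. The neighbours in this cluster thus differed in level and in change: Ereg and Areg rose at both doses, Btc passed in Ep2 alone, and Epgn was near 0 in all libraries. On the Epgn side of the cluster, Mthfd2l, Cxcl1, and Ppbp did not pass the test in any comparison (log2 fold changes in Ep2 of -0.10, -0.07, and 0.31). Between Areg and Btc, Gm23092 was at 0 and Gm19619 was too low to be tested. The means of Gm19619 were 0.350, 0.385, and 0.843 FPKM in Ctrl, Ep1, and Ep2.

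The start of Ereg is overlapped by 152 bases of Gm19610, which RefSeq lists as a long noncoding RNA on the opposite strand (chr5:91051871-91074773). Gm19610 was covered by 32, 24, and 34 fragments in Ctrl, by 32, 28, and 52 in Ep1, and by 44, 47, and 46 in Ep2. Its mean rose from 3.85 FPKM in Ctrl to 6.20 FPKM in Ep2 (log2 fold change 0.58, adjusted p = 0.0230, limma), and the call was lost without Ctrl replicate 2 (adjusted p = 0.0751), Ep2 replicate 2 (0.0563), or Ep2 replicate 3 (0.0787) and with no filter (0.0552). The sources used here do not state whether fragments were counted by strand, so reads of Ereg and of Gm19610 in the shared bases cannot be told apart.

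**Figure D4:**
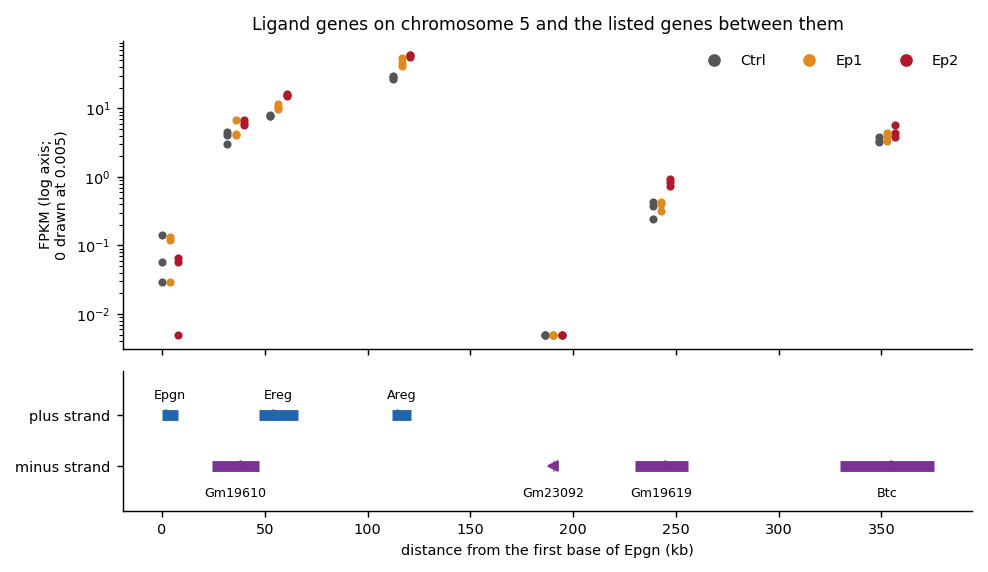
Upper panel: FPKM (log axis, 0 drawn at 0.005) of the genes between Epgn and Btc, 1 point per library. Lower panel: their extent and strand, by distance in kb from the first base of Epgn. Areg and Ereg are highest in Ep2, Epgn is under 0.2 FPKM in all libraries, and Gm23092 is listed at 0.

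For each tested member, the 3 tested genes with the most similar pattern over the 9 libraries were taken by Pearson's r of log2(FPKM + 1). For Areg they were Kif5b (0.993), Gabarapl1 (0.991), and Csnk1a1 (0.991). For Ereg they were Tead1 (0.997), Nipal1 (0.996), and Tnks2 (0.995), and for Tgfa Clic4 (0.997), Cblb (0.996), and Zc3h6 (0.992). For Btc they were Oxr1 (0.978), Fto (0.974), and Dpy19l3 (0.971), and for Egfr Rchy1 (0.994), Rnf214 (0.978), and Sbf2 (0.975). For Erbb2 they were Fbxl8 (0.981), Unc45a (0.974), and Nudt18 (0.962). The best match of Hbegf was weaker, with 0.89 for Itpk1, 0.887 for B4galt7, and 0.879 for 9230111E07Rik. These are the highest of 11727 genes over libraries that fall into 3 groups, and they are given as descriptions. One of them, Cblb, encodes a ubiquitin ligase that acts on the EGF receptor and is described again below.

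The other members of the family were at or near 0 in the table. Egf, Nrg1, Nrg2, and Nrg4 did not exceed 0.13 FPKM in any library, and Nrg3 and Erbb4 were listed at 0 in every library, so none of these 6 genes was tested. Values at or near 0 need not mean that a transcript is absent, since Hgs, an endosomal sorting gene used by nearly all cells, also had at most 2 fragments in any library. Around the ligands and receptors, 84 genes in 6 lists were examined, of which 79 were tested. In Ep2 against Ctrl, 39 of them were higher and 13 lower, where 53.2% of all tested genes passed and 23.9% were higher. In Ep1, 13 were higher and 5 lower, where 11.3% of all tested genes passed and 6.32% were higher, but these counts depended on single libraries. Without Ctrl replicates 1, 2, and 3 they were 3, 4, and 9 higher, without Ep1 replicates 1, 2, and 3 they were 6, 9, and 4 higher, and with no filter 5 were higher, while the lower counts ran from 1 to 8. The counts in Ep2 kept within 35 to 42 higher and 9 to 13 lower when single libraries were left out.

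Genes that release the ligands from the membrane did not move together. Of 9 tested shedding genes, 3 were higher and 4 lower in Ep2 (median log2 fold change -0.015), against 53.2% of all tested genes that passed and 23.9% that were higher. Adam17, the main protease for Areg, Ereg, Tgfa, and Hbegf and named here after its values were seen, had means of 15.7 ± 0.448 and 16.1 ± 0.389 FPKM in Ctrl and Ep2 (n = 3, SD), a log2 fold change of 0.03 with an adjusted p of 0.504 by limma. Adam8, a related protease of leukocytes and tumour cells, rose from 8.76 to 16.0 FPKM in Ep2 (0.78, adjusted p = 0.00218, limma), with its 3 Ep2 libraries between 13.5 and 21.1 FPKM. Rhbdf1, an iRhom that helps Adam17 mature, fell from 24.8 to 21.2 FPKM (-0.22, adjusted p = 0.00492, limma). Frmd8, a partner of the iRhoms, had the smallest adjusted p in Ep1, where it fell from 17.7 to 14.2 FPKM (-0.29, adjusted p = 0.0121, limma), a call lost in 2 of 18 alternatives. Between the doses, Adam8 was higher in Ep2 (0.86, adjusted p = 0.00173, limma) and Adam15 lower (-0.23, adjusted p = 0.0323, limma), the latter lost in 6 of 18 alternatives.

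Among 16 tested adaptors and enzymes that active receptors recruit, directly or through other proteins, 6 were higher and 2 lower in Ep2. This stood beside 53.2% of all tested genes that passed in Ep2 and 23.9% that were higher. In Ep1, 2 were higher (Sos2 and Gab2), where 11.3% of all tested genes passed and 6.32% were higher. The Ep1 count was 0 without Ctrl replicate 1 or 2 or without any 1 of the 3 Ep1 libraries, and 1 without Ctrl replicate 3. Eps8, a substrate of the EGF receptor kinase, rose from 11.5 to 16.6 FPKM in Ep2 (log2 fold change 0.49, adjusted p = 6.71e-05, limma). Ptpn11, the phosphatase SHP2, fell from 31.0 to 27.3 FPKM (-0.18, adjusted p = 0.0047, limma). The exchange factor Sos2 had the smallest adjusted p in Ep1 (0.19, adjusted p = 0.0312), and it lost this call in 9 of 18 alternatives, as Gab2 did in 6 of 17. In Ep2, Sos2 rose by 0.37 (adjusted p = 0.000125, limma) and Gab2 by 0.61 (adjusted p = 9.36e-05, limma). The Ep2 calls held in all 18 alternatives for Sos2 and all 17 for Gab2. Shc1 had the smallest adjusted p among genes lower in Ep2 than in Ep1 (-0.16, adjusted p = 0.0259, limma) and lost this call in 7 of 18 alternatives.

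In the RAS to ERK cascade, 6 of 13 tested genes were higher and 3 lower in Ep2. Over all tested genes, 53.2% passed in Ep2 and 23.9% were higher. Mapk3, the kinase ERK1, fell from 86.6 to 65.8 FPKM in Ep2 (-0.39, adjusted p = 5.15e-05, limma). Nras was higher in Ep2 than in Ep1 (0.20, adjusted p = 0.0025, limma). In the PI3K to AKT branch, 6 of 12 tested genes were higher and 3 lower in Ep2. The same shares of all tested genes, 53.2% that passed and 23.9% that were higher, stand beside these counts. Pdpk1, the kinase that activates AKT, rose from 9.93 to 13.9 FPKM (0.44, adjusted p = 7.36e-05, limma). Pik3r2, a regulatory subunit of PI3K, fell from 36.6 FPKM in Ctrl to 26.7 in Ep1 (-0.44, adjusted p = 0.00538, limma) and 23.7 in Ep2 (-0.61, adjusted p = 2.09e-05, limma), and both calls held in all 18 alternatives. Its relative Pik3r3 rose in Ep1 (0.33, adjusted p = 0.0449, limma) and lost this call in 10 of 17 alternatives. In Ep2 Pik3r3 rose by 0.385 (adjusted p = 0.00532, limma), a call that held in all 17 alternatives.

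The attenuator list held inhibitors, ubiquitin enzymes, phosphatases, and endocytic sorting proteins that act on the receptors, not all of which need restrain them. In Ep2, 53.2% of all tested genes passed and 23.9% were higher. Of 13 tested genes of this list, 10 were higher and 0 lower in Ep2 (median log2 fold change 0.24). The count of higher genes was 8 to 10 when single libraries were left out. At an unadjusted p below 0.05, and with voom on fragments, the number of lower attenuators was also 0. Cblb had means of 2.30 ± 0.117, 3.04 ± 0.368, and 3.96 ± 0.256 FPKM in Ctrl, Ep1, and Ep2 (SD, n = 3 each), with a log2 fold change of 0.59 in Ep2 (adjusted p = 0.000197, limma). Its Ep1 value of 0.29 (adjusted p = 0.0416, limma) lost the call in 8 of 17 alternatives. Ptprj, a receptor phosphatase, was at 4.36 FPKM in Ep1 and 6.46 in Ep2 (0.48 between the doses, adjusted p = 0.000415, limma). Rnf41, a ubiquitin ligase for Erbb3, fell in Ep1 from 12.9 to 10.6 FPKM (-0.27, adjusted p = 0.0186, limma, lost in 4 of 18 alternatives) and was at 13.3 FPKM in Ep2.

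Of 16 tested genes known as early targets of the EGF receptor, many of which respond to other signals as well, 6 were higher in Ep1. In Ep2, 8 were higher and 1 lower. Over all tested genes, 11.3% passed in Ep1 and 6.32% were higher, and in Ep2 53.2% passed and 23.9% were higher. Without Ctrl replicate 1, the Ep1 count was 3, since Egr1, Klf6, and Phlda1 then had adjusted p-values above the threshold (largest values over all alternatives 0.0533, 0.0718, and 0.0589). Plaur, the receptor of urokinase, had means of 57.6 ± 1.05, 77.3 ± 2.63, and 81.9 ± 3.95 FPKM in Ctrl, Ep1, and Ep2 (SD, n = 3 each). It rose by 0.42 on the log2 scale at the lower dose (adjusted p = 0.00464, limma) and by 0.50 at the higher dose (adjusted p = 2.78e-05, limma), and both calls held in all 18 alternatives. Myc rose from 3.35 FPKM in Ctrl to 6.00 in Ep2 (0.69, adjusted p = 8.58e-05, limma) and was also higher than in Ep1 (0.47, adjusted p = 0.00112, limma). Ier2 fell in Ep2 from 65.2 to 56.1 FPKM (-0.21, adjusted p = 0.00529, limma), a call lost after the gene length correction (adjusted p = 0.128). Past both thresholds were Egr1, Klf6, and Il11 in Ep1 and Myc, Klf6, Maff, and Il11 in Ep2, and those other than Myc are named here after their values were seen, as is Fos. Fos had a larger value in Ep1 (1.58), where its libraries spread from 4.51 to 16.1 FPKM, and did not pass the test (adjusted p = 0.056, limma). Among those that passed, Il11, a cytokine of the IL-6 family, was the largest, with means of 2.24, 7.24, and 8.79 FPKM in the groups in order of dose. Between the doses, only Egr1 was past both thresholds, and it was lower in Ep2 (-0.665, adjusted p = 0.00822, limma). This call of Egr1 held in all 18 alternatives. Its means were 4.37, 9.06, and 5.28 FPKM in Ctrl, Ep1, and Ep2, and it did not pass in Ep2 against Ctrl (adjusted p = 0.253, limma).

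**Figure D5:**
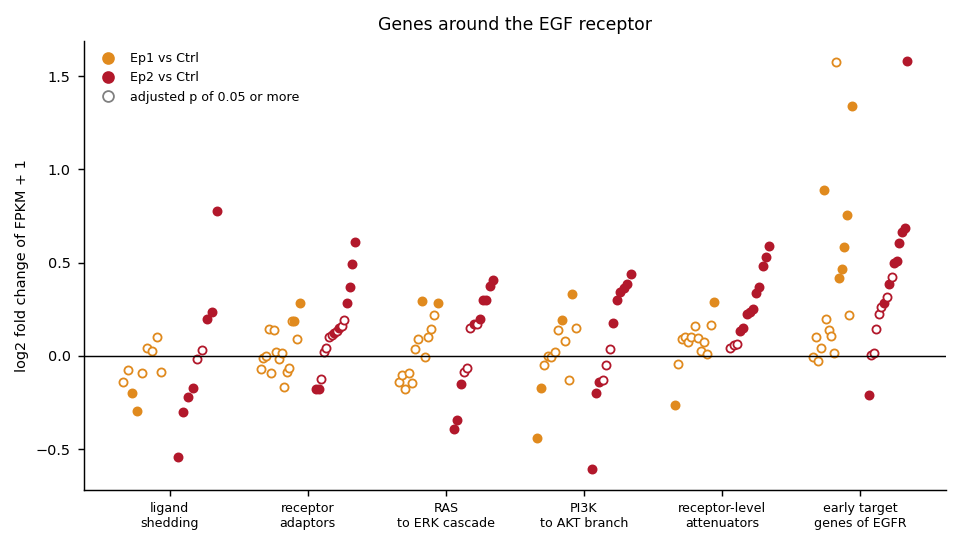
Log2 fold change of FPKM + 1 (y axis) of the tested genes of 6 lists in Ep1 against Ctrl (orange) and in Ep2 against Ctrl (red), 1 point per gene, ordered within each list by the Ep2 value. Filled points have an adjusted p below 0.05. In Ep2 10 of the 13 attenuators are filled and above 0, while the shedding genes have 3 filled points above and 4 below 0.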

How the data were processed

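Total RNA was sequenced as paired 150-base reads in 9 libraries (3 each of Ctrl, Ep1, and Ep2), grouped by their names. Reads were mapped by the authors, who deposited 1 FPKM value per gene and library, normalized to gene length and library size. The methods name GRCm39 and the submitters' processing notes mm8 and Bowtie 0.12.2, but 99.9% of 37624 genes compared lie at their GRCm38 positions, which are used here. The counting tool, strandedness, and test of the study are not given in the sources used here.

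FPKM times length was divided by a step, estimated for each library from its lower values and taken as 1 fragment, and then rounded. Before rounding, fragments were whole to within 0.05, which was checked in the lower range of counts only. Genes that reached 1 FPKM in 3 or more libraries were fitted as log2(FPKM + 1) with limma 3.58.1 (R 4.3.3; all 9 libraries, eBayes with a variance trend and robust fitting, without covariates), with Benjamini-Hochberg adjustment within each comparison. The code was first tested on simulated data. The members and lists were chosen with earlier results of these data known. Named from each list is the gene with the smallest adjusted p in each direction per comparison, and for each member the 3 most correlated genes. Some genes of the lists enter the counts and are not reported here.

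Alternatives were a pseudocount of 0.1, no filter, a filter of 5 FPKM, median centring, a gene length correction, a replicate block, plain eBayes, voom on genes with at least 10 fragments, fits of only the groups compared, and the omission of each library. Markers of pericytes, fibroblasts, macrophages, and neural cells were also examined. Of these lists 1 of 10, 3 of 8, 1 of 10, and 1 of 9 genes reached 1 FPKM in 3 libraries.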

Additional observations from a re-analysis of the deposited data

How the results depend on the processing

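Areg and Ereg kept their direction and their calls in all 3 comparisons under every alternative and every omission of a library, and so did Tgfa in Ep2 against Ctrl wherever it was tested. Of 372 alternative log2 fold changes of the members, 350 kept their direction and side of the threshold, 15 lost and 4 gained a call, and 3 turned. The turned values belong to Hbegf, which was never called: its Ep2 against Ctrl value was 0.044 after the gene length correction, and its Ep2 against Ep1 value ranged from -0.044 to 0.064 when single libraries were left out, with -0.004 without Ep2 replicate 1. The number of members that passed in Ep2 against Ctrl was 3 under the filter of 5 FPKM, since Btc and Egfr were then not tested. When single libraries were left out it was 4 to 6, against 2 to 4 in Ep1 against Ctrl and 3 to 4 between the doses. Same-numbered libraries did not deviate together (r of their deviations from the group means from -0.056 to 0.074). These values cannot tell whether same-numbered libraries were handled together. With the replicate block the counts of members were 3, 5, and 4, as without it, and no call of a member changed. The counts of the pathway lists moved by over 1.5 times in 120 of 648 cases, the cause of which was not tested. Over all tested genes, 1324 passed in Ep1 against Ctrl. This number was 192 to 2192 when single libraries were left out, 396 with no filter, 1993 with voom, and 2217 in a fit of Ctrl and Ep1 alone. The number also past the fold threshold in Ep2 against Ctrl was 1075, with 1616 at a pseudocount of 0.1 and 2207 with voom, and between the doses it was 692, 1101, and 1549. Depth limits Epgn and Erbb3, which had at most 11 fragments per library.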
